A study of Mus musculus with 6 samples.

Results

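The 35 genes described here encode the enzymes and carriers that bring glucose into the cell, break it down to pyruvate, convert pyruvate to lactate, pass pyruvate to the mitochondrion, and build and break down glycogen. They were chosen by gene name, and all 35 were found among the 24421 genes listed for the series. All 35 also passed the filter on low values, a mean of at least 0.5 CPM (reads scaled to library size) over the 6 libraries, which 15137 genes passed.

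RNA was sequenced from hippocampal astrocytes of *Siglech* dtr/dtr mice, a C57BL/6 knock-in line in which the microglial gene *Siglech* also drives the receptor for diphtheria toxin (DT), so that DT kills microglia. The PBS group (3 libraries) and the DT group (3 libraries, 50 µg/kg DT) both carried the knock-in alleles and were collected 2 days after intraperitoneal injection, so that the comparison is between treatments within 1 genotype, and wild-type mice given DT were not analysed here. Each library was a pool of 2 mice from 1 of 3 independent experiments, and p-values therefore measure the spread between such pools. Astrocytes were isolated with magnetic beads against the astrocyte surface antigen ACSA-2, after cells that bound beads against CD11b, a marker of microglia and other myeloid cells, had been removed.

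Glycolysis converts glucose to pyruvate, and lactate dehydrogenase interconverts pyruvate and lactate. In the brain, astrocytes are known for a strongly glycolytic metabolism, for holding most of the glycogen, and for releasing lactate through monocarboxylate carriers, which neurons can take up and oxidise. Several steps are catalysed by alternative isoforms from separate genes, which differ in regulation and in the cell types that use them, so the share of each isoform is part of the description of the pathway.

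The recovered reads per library ranged from 21704891 to 32933975. Marker genes of astrocytes summed to between 27094 and 28777 TPM (transcript abundance scaled to library size and corrected for gene length) in the 6 libraries, and neuron markers to between 247 and 439 TPM. The sums of some other cell types moved with the treatment. Microglia markers summed to 179 to 224 TPM in PBS and 97.1 to 112 TPM in DT libraries (6 of 10 genes called lower). Markers of border-associated macrophages summed to 12.9 to 24.6 TPM and 57.5 to 77.6 TPM (3 of 6 genes tested called higher). Oligodendrocyte precursor markers (154 to 198 TPM against 118 to 150 TPM) and ependymal markers (425 to 585 TPM against 593 to 1017 TPM) did not overlap between the groups either. Choroid plexus markers varied from 104 to 2026 TPM in PBS and from 1251 to 3432 TPM in DT libraries, and endothelial markers from 762 to 1195 TPM and from 643 to 773 TPM. Among the lists of markers, only the list of red blood cells had a gene at 0 in every library. The part of these other cells in the results below was not tested, also where their marker sums are given beside a gene. In bulk samples, fewer cells of a type and less RNA per cell cannot be told apart.

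The 35 genes were, as a group, among the most abundant in the astrocyte libraries. Their TPM summed to 14803 ± 169 (mean ± SD, n = 3, as for every ± value below) in the PBS libraries and 14803 ± 637 in the DT libraries, 1.48% of all TPM in both. In the PBS libraries, 21 of the 35 stood at or above the 90th percentile of the genes tested and 7 at or above the 99th. Below the 50th percentile stood 6 of them, the lowest being *Slc16a3*, *Slc16a7* and *Hk2* at percentiles 5.07, 10.9 and 14.2. Replicates lay close together. The coefficient of variation across the 3 libraries had a median of 6.59% over the 35 genes in the PBS group (from 2.00% to 43.1%) and of 7.28% in the DT group (up to 53.9%).

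**Figure D1:**
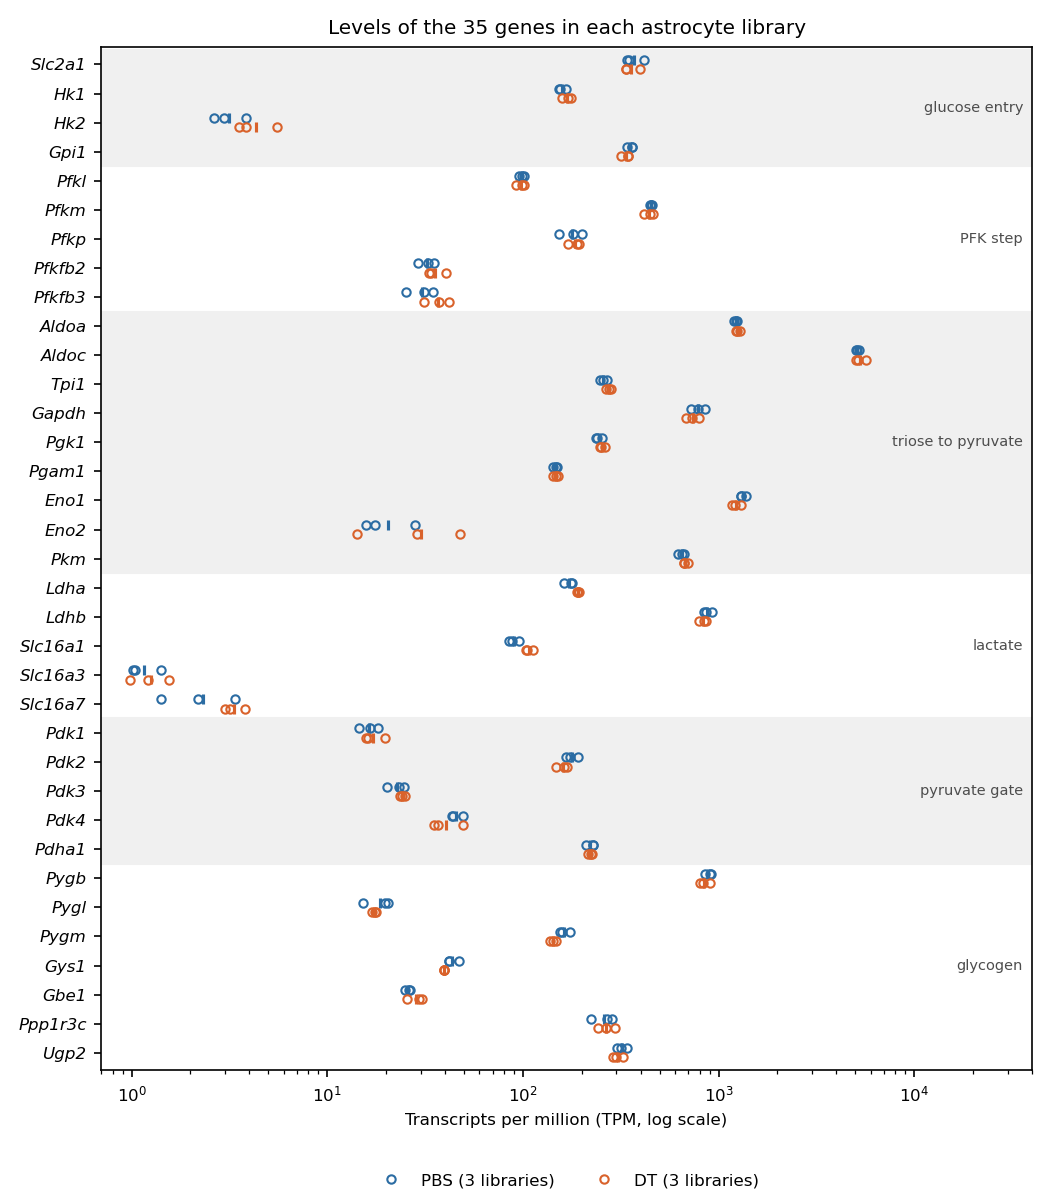
Level of each of the 35 genes in TPM (log scale) in the 3 PBS libraries (blue) and the 3 DT libraries (orange), with the group mean as a short bar and the genes ordered by step. Levels ran from about 1 TPM for *Slc16a3* to 5128 ± 76.6 TPM for *Aldoc* in PBS libraries, and the colours overlapped for all but *Ldha*, *Slc16a1*, *Pygm* and *Gys1*.

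After microglial ablation, no gene of the 35 passed the threshold. Differences are given below as the log2 fold change of DT over PBS on the scale of log2(CPM + 0.1), with its 95% interval, and a gene was called at an adjusted p-value under 0.05 from limma over all genes tested. By this rule 0 of the 35 genes were called, where 0.713% of all genes tested were. At an unadjusted p-value under 0.05, 2 of the 35 genes (*Slc16a1* and *Pygm*) stood out, or 5.71%, against 10.4% of all genes tested. The edgeR quasi-likelihood test and DESeq2 on the recovered reads also called 0 of the 35, each with the same 2 genes at an unadjusted p-value under 0.05. The 3 DT values lay all above or all below the 3 PBS values for 4 of the 35 genes, or 11.4%, against 16.3% of all genes tested. *Slc16a1* and *Ldha* were the higher ones, and *Pygm* and *Gys1* the lower ones, in CPM and in TPM alike.

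The differences were small in size. Of the 35 genes, 19 had a higher and 16 a lower mean after DT, and their median log2 fold change was 0.03, against -0.01 over all genes tested. The median absolute log2 fold change was 0.08 for the 35 genes, 0.11 for all genes tested and 0.08 for the genes with a mean of at least 20 CPM, a level that 30 of the 35 reached. The whole 95% interval lay within 0.5 of zero for 29 of the 35 genes and within 1 of zero for 33. Among genes of at least 20 CPM, the interval lay within 0.5 of zero for 27 of the 30 members and for 88.4% of all such genes. The interval of each gene gives the range of differences that its values allow, without adjustment over genes, and was widest for *Eno2*, *Slc16a7* and *Slc16a3*. The rule for calling was stricter, as *Slc16a1* and *Pygm* had intervals that left out zero and were not called.

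**Figure D2:**
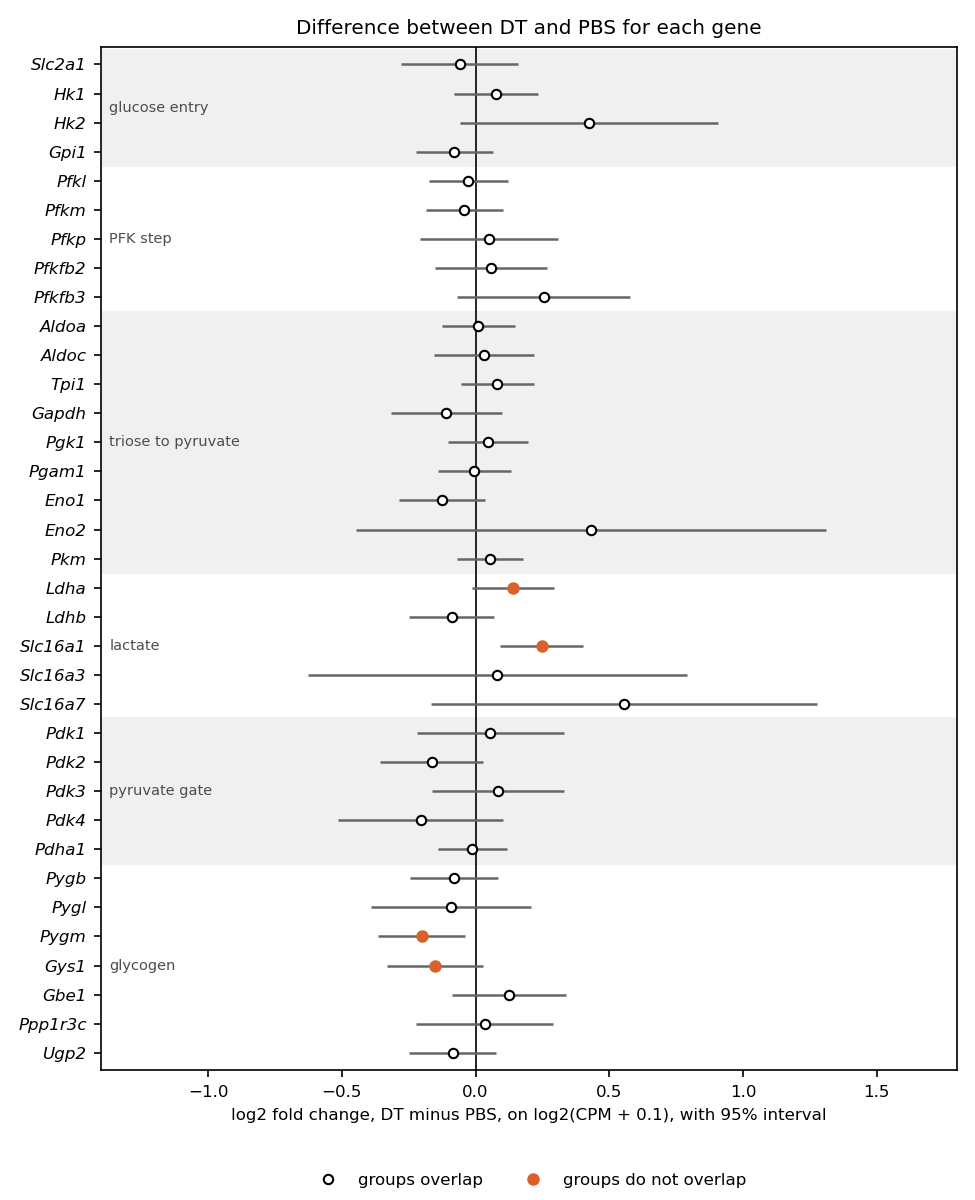
Log2 fold change of DT over PBS for each of the 35 genes (limma on log2(CPM + 0.1), 3 against 3 libraries), with bars for the 95% interval and filled points where the CPM of the groups did not overlap. *Slc16a1* and *Pygm* were the only genes whose intervals left out zero, and neither passed the adjusted threshold.

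Glucose enters astrocytes through *Slc2a1* (GLUT1), which is also abundant in the endothelium. Its level was 347, 341 and 418 TPM in the PBS libraries and 338, 336 and 395 TPM in the DT libraries, so that library 3 was the highest of both groups. The sums of the endothelial markers were 762, 860 and 1195 TPM and 643, 668 and 773 TPM in the same libraries, again highest in library 3 of each group. The part of endothelium in the level of *Slc2a1* was not tested. *Slc2a1* had a log2 fold change of -0.06 (95% interval -0.28 to 0.16). Hexokinase traps glucose by phosphorylating it, and *Hk1*, the isoform bound to mitochondria that predominates in brain, held 98.0 ± 0.43% of the hexokinase TPM after PBS and 97.5 ± 0.76% after DT. Its log2 fold change was 0.08 (-0.08 to 0.23). *Hk2*, the inducible isoform, was read only 125 to 314 times per library, and stood at 5.76, 4.88 and 7.21 CPM after PBS and 7.38, 10.2 and 6.59 CPM after DT. The DT value of library 2 was the highest, and the groups overlapped. Its log2 fold change was 0.42 (-0.06 to 0.91, adjusted p = 0.534), from 0.24 without DT replicate 2 to 0.57 without PBS replicate 3. *Gpi1*, which isomerises glucose 6-phosphate, stood at 353 ± 11.7 TPM and 337 ± 16.3 TPM, with a log2 fold change of -0.08 (-0.22 to 0.06).

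Phosphofructokinase catalyses the committed step of glycolysis. The muscle-type isoform *Pfkm* gave the largest share of its TPM, 62.0 ± 1.78% after PBS and 60.9 ± 0.33% after DT. *Pfkp*, the platelet type, gave 24.4 ± 2.46% and 25.6 ± 0.39%, and *Pfkl*, the liver type, 13.6 ± 0.75% and 13.5 ± 0.08%. The order of the 3 isoforms was the same in each of the 6 libraries. Their log2 fold changes were -0.04 (-0.19 to 0.10) for *Pfkm*, 0.05 (-0.21 to 0.31) for *Pfkp* and -0.03 (-0.17 to 0.12) for *Pfkl*. *Pfkfb3* and *Pfkfb2* make fructose 2,6-bisphosphate, the activator of phosphofructokinase. *Pfkfb3* was at 54.9, 58.9 and 43.8 CPM in the PBS libraries and 73.0, 62.5 and 52.7 CPM in the DT libraries. The lowest DT library lay below the higher pair of PBS libraries, so the groups overlapped, and the log2 fold change was 0.25 (-0.07 to 0.58, adjusted p = 0.586), and was 0.13 without PBS replicate 3, 0.14 without DT replicate 1 and 0.37 without DT replicate 3. *Pfkfb2* stood at 32.4 ± 3.11 TPM and 35.7 ± 3.94 TPM, a log2 fold change of 0.06 (-0.15 to 0.27), and overlaps the gene Gm29427 on the same strand, with which it could share reads. The same holds for *Pfkfb3* and Gm37975, *Pfkm* and Gm26513, and *Pkm* and Gm49759. *Slc2a1* and *Ugp2* each overlap a microRNA gene on their strand.

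The steps from fructose bisphosphate to pyruvate held the most abundant genes. *Aldoc*, the brain aldolase and a known marker of astrocytes (chr11:78322968-78327781 on mm10, as all gene positions here, plus strand), was at 5070, 5098 and 5215 TPM after PBS and 5662, 5187 and 5026 TPM after DT. It made up 34.6 ± 0.80% of the TPM of all 35 genes after PBS and 35.7 ± 0.74% after DT. The other aldolase measured, *Aldoa*, stood at 1224 ± 25.0 TPM and 1253 ± 26.3 TPM, so *Aldoc* held 80.7 ± 0.30% and 80.8 ± 0.67% of the aldolase TPM. The log2 fold change was 0.03 (-0.15 to 0.22) for *Aldoc* and 0.01 (-0.13 to 0.15) for *Aldoa*. *Eno1*, the ubiquitous enolase, was at 1330 ± 48.9 TPM and 1231 ± 65.5 TPM, the next level after *Aldoc* in PBS libraries, and its range in those libraries lay above that of *Aldoa*. Its log2 fold change was -0.13 (-0.29 to 0.04, adjusted p = 0.594). *Eno1b*, a retrogene close in sequence to *Eno1*, was assigned 51.9 to 68.1 CPM but almost no TPM, so reads of this pair were divided differently by the 2 measures. The sum of *Eno1* and *Eno1b* was 867 ± 45.3 CPM after PBS and 804 ± 49.7 CPM after DT.

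*Eno2*, the neuronal enolase (chr6:124760053-124769673, minus strand), had the widest interval of the 35 genes. It stood at 17.1, 14.8 and 26.9 CPM in the PBS libraries and 13.8, 44.4 and 27.1 CPM in the DT libraries, so that the lowest and the highest value were both in the DT group. The sums of the neuron markers were 291, 363 and 359 TPM and 247, 423 and 439 TPM in the same libraries. They were lowest in the DT library with the lowest *Eno2*. PBS replicate 2 had the highest sum of its group but its lowest *Eno2*. The part of neurons in the level of *Eno2* was not tested. The log2 fold change was 0.43 (-0.45 to 1.31, adjusted p = 0.752), and ranged from 0.03 without DT replicate 2 to 0.87 without DT replicate 1. The share of *Eno2* in the enolase TPM lay between 1.08% and 3.77%.

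The remaining enzymes of this stretch were abundant, and all but *Gapdh* had intervals narrower than the median of the 35 genes. *Gapdh*, which oxidises glyceraldehyde 3-phosphate and often serves as a reference gene, stood at 788 ± 66.5 TPM and 737 ± 59.0 TPM, with a log2 fold change of -0.11 (-0.32 to 0.10, adjusted p = 0.734). *Pkm*, which forms pyruvate, stood at 648 ± 22.5 TPM and 678 ± 18.3 TPM, with a log2 fold change of 0.05 (-0.07 to 0.18), the narrowest interval of the 35. *Tpi1*, *Pgk1* and *Pgam1*, which act between aldolase and enolase, had log2 fold changes of 0.08 (-0.06 to 0.22), 0.05 (-0.10 to 0.20) and -0.005 (-0.14 to 0.13). *Aldoa*, *Gapdh*, *Pgk1*, *Pgam1* and *Ldha* have processed pseudogenes in the annotation, and reads that match both could have been divided between them.

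Lactate handling had the highest median log2 fold change among the 6 groups of steps, 0.14, with 4 of 5 genes higher and 1 lower after DT and 0 called. *Slc16a1* encodes the monocarboxylate carrier MCT1, which moves lactate, pyruvate and ketone bodies with a proton (chr3:104638668-104658462, plus strand). It was at 135, 127 and 145 CPM in the PBS libraries and 160, 154 and 168 CPM in the DT libraries, or 89.6 ± 5.51 TPM and 107 ± 4.79 TPM. The 3 DT values all exceeded the 3 PBS values, and the fold change was 1.19 (95% interval 1.07 to 1.32). Its log2 fold change was 0.25 with a standard error of 0.07, and its adjusted p of 0.242 from limma was the lowest of the 35 genes and did not pass the threshold. Over the 17 alternative settings, the log2 fold change stayed between 0.20 and 0.30 and the adjusted p did not fall below 0.0986. MCT1 is also known in endothelium and choroid plexus. The markers after DT were all lower for endothelium (9 of 9) and all higher for choroid plexus (7 of 7), with 0 called. The endothelial sums were 762, 860 and 1195 TPM after PBS and 643, 668 and 773 TPM after DT. The choroid plexus sums were 385, 2026 and 104 TPM and 3432, 2329 and 1251 TPM. *Slc16a1* was highest in library 3 of each group, where the endothelial sums were highest and the choroid plexus sums lowest. The part of either in the level of *Slc16a1* was not tested. The annotation also holds 2 intronic transcripts within *Slc16a1* on its strand, which could share its reads. Of the other carriers, *Slc16a7* (MCT2, the high-affinity carrier of neurons) and *Slc16a3* (MCT4, the low-affinity carrier known for lactate export from astrocytes) were near the lower end of what was measured, and *Slc16a1* held 96.3 ± 0.91% of the TPM of the 3 carriers after PBS and 95.9 ± 0.47% after DT.

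*Slc16a7* was read 26 to 95 times per library, at 1.2, 1.78 and 2.85 CPM after PBS and 2.53, 3.09 and 2.62 CPM after DT. The highest PBS library lay above the lowest DT library, and the log2 fold change was 0.56 (-0.17 to 1.28, adjusted p = 0.596), from 0.27 without PBS replicate 1 to 0.86 without PBS replicate 3. *Slc16a3* was read 20 to 40 times per library, at 0.92 to 1.21 CPM after PBS and 0.87 to 1.35 CPM after DT. Its log2 fold change was 0.08 with an interval of -0.63 to 0.79, so that differences of either sign within it were not excluded at this depth. On this log scale, a larger pseudocount made the log2 fold changes of both genes smaller, for *Slc16a7* 0.46 at 0.5 and 0.38 at 1. On the recovered reads, the edgeR quasi-likelihood test and DESeq2 each gave 0.51 for *Slc16a7*.

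Lactate dehydrogenase is a tetramer of A and B subunits, and the A subunit, encoded by *Ldha*, favours the formation of lactate. *Ldhb* (chr6:142490249-142507957, minus strand) was the more abundant of the pair, at 877 ± 47.0 TPM after PBS and 832 ± 36.9 TPM after DT. *Ldha* (chr7:46841475-46855627, plus strand) was at 99.6, 88.4 and 98.3 CPM in the PBS libraries and 109, 103 and 104 CPM in the DT libraries. The 3 DT values all exceeded the 3 PBS values, but by little, with a log2 fold change of 0.14 (-0.01 to 0.29, standard error 0.07, adjusted p = 0.520), or 0.09 without PBS replicate 2, the lowest library. The log2 fold change of *Ldhb* was -0.09 (-0.25 to 0.07, adjusted p = 0.706), and the groups overlapped. The share of *Ldha* in the lactate dehydrogenase TPM was 15.9%, 16.2% and 17.1% in the PBS libraries and 18.6%, 18.1% and 19.3% in the DT libraries. The ratio of *Ldha* to *Ldhb* was 0.196 ± 0.0086 after PBS and 0.230 ± 0.0094 after DT. Of the 8 families of isoforms, lactate dehydrogenase was the 1 in which the shares did not overlap between the groups, also when they were computed from CPM. The shares were not tested, and 16.3% of all genes tested did not overlap in level.

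**Figure D3:**
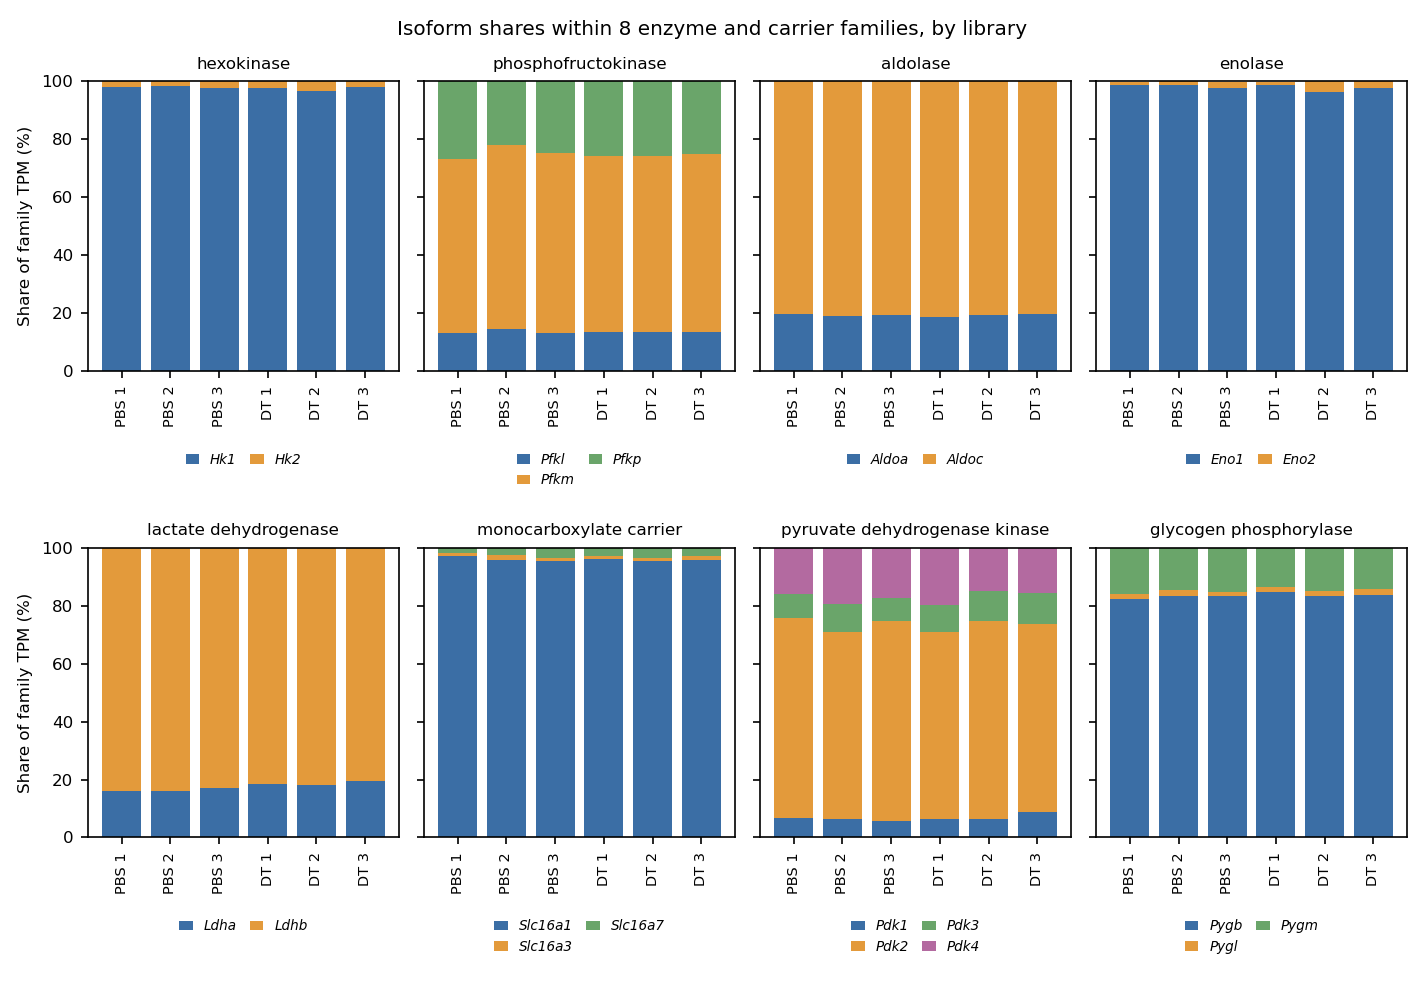
Share of each isoform in the TPM of its family (%), as stacked bars for each of the 3 PBS and 3 DT libraries, in the 8 families with more than 1 of the 35 genes. One isoform held most of the TPM in each family in all 6 libraries (from about 60% for *Pfkm* to over 95% for *Hk1*, *Eno1* and *Slc16a1*), and the *Ldha* share was 16.4 ± 0.60% after PBS and 18.7 ± 0.62% after DT.

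Pyruvate dehydrogenase admits pyruvate carbon to the citric acid cycle, and its kinases switch it off. *Pdha1*, the catalytic subunit that the kinases phosphorylate, differed least in this group, with a log2 fold change of -0.01 (-0.14 to 0.12). *Pdk2* gave 67.6 ± 2.67% of the kinase TPM after PBS and 66.1 ± 1.97% after DT, and *Pdk4* followed with 17.5 ± 1.78% and 16.7 ± 2.51%. *Pdk3* gave 8.66 ± 0.88% and 10.1 ± 0.63%, and *Pdk1* gave 6.26 ± 0.47% and 7.18 ± 1.32%. *Pdk4*, the kinase known to be induced by fasting and glucocorticoids, was at 52.4, 57.6 and 51.6 CPM after PBS and 58.8, 42.4 and 40.7 CPM after DT. DT replicate 1 had the highest value of all libraries while the other DT libraries had the lowest, and the log2 fold change was -0.21 (-0.51 to 0.10, adjusted p = 0.650), or -0.37 without DT replicate 1 (adjusted p = 0.192). For *Pdk2* it was -0.16 (-0.36 to 0.03, adjusted p = 0.548). *Pdk1* and *Pdk3*, a gene on the X chromosome, had log2 fold changes of 0.05 (-0.22 to 0.33) and 0.08 (-0.16 to 0.33).

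Glycogen genes had the lowest median log2 fold change among the 6 groups, -0.09, with 2 of 7 genes higher and 5 lower after DT and 0 called. *Pygm* encodes the muscle isoform of glycogen phosphorylase, which releases glucose units from glycogen and is known in astrocytes beside the brain isoform (chr19:6384399-6398459, plus strand). It was at 173, 152 and 150 CPM in the PBS libraries and 140, 140 and 132 CPM in the DT libraries. Every DT library lay below every PBS library, with a fold change of 0.870 (95% interval 0.777 to 0.973). Its log2 fold change was -0.20 with a standard error of 0.07 and an adjusted p of 0.381 from limma. The difference was -0.14 without PBS replicate 1, the highest library, and -0.17 without DT replicate 3, the lowest. *Pygb*, the brain isoform, gave 83.1 ± 0.70% of the phosphorylase TPM after PBS and 84.1 ± 0.77% after DT, and *Pygm* gave 15.2 ± 0.63% and 14.2 ± 0.75%. The shares overlapped between the groups. The log2 fold change of *Pygb* was also below zero, at -0.08 (-0.25 to 0.08). *Pygl*, the liver isoform, stood at percentile 45.0 in the PBS libraries, with a log2 fold change of -0.09 (-0.39 to 0.21).

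Glycogen synthesis showed values on either side of zero. *Gys1*, the glycogen synthase of tissues other than liver (chr7:45434844-45456619, plus strand), was at 60.3, 51.6 and 52.5 CPM in the PBS libraries and 50.2, 48.4 and 48.9 CPM in the DT libraries. The DT libraries lay below the PBS libraries by a gap smaller than the spread within the PBS group, and the log2 fold change was -0.15 (-0.33 to 0.03, standard error 0.08, adjusted p = 0.550), or -0.08 without PBS replicate 1, the highest library. *Ppp1r3c*, a subunit that brings protein phosphatase 1 to glycogen and activates the synthase, stood at 259 ± 31.9 TPM and 267 ± 27.1 TPM, with a log2 fold change of 0.03 (-0.22 to 0.29). *Ugp2*, which makes UDP-glucose, had a log2 fold change of -0.09 (-0.25 to 0.08), and *Gbe1*, the branching enzyme, of 0.12 (-0.09 to 0.34). *Gys1* overlaps *Ruvbl2* on the opposite strand, and reads were mapped with strand information.

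**Figure D4:**
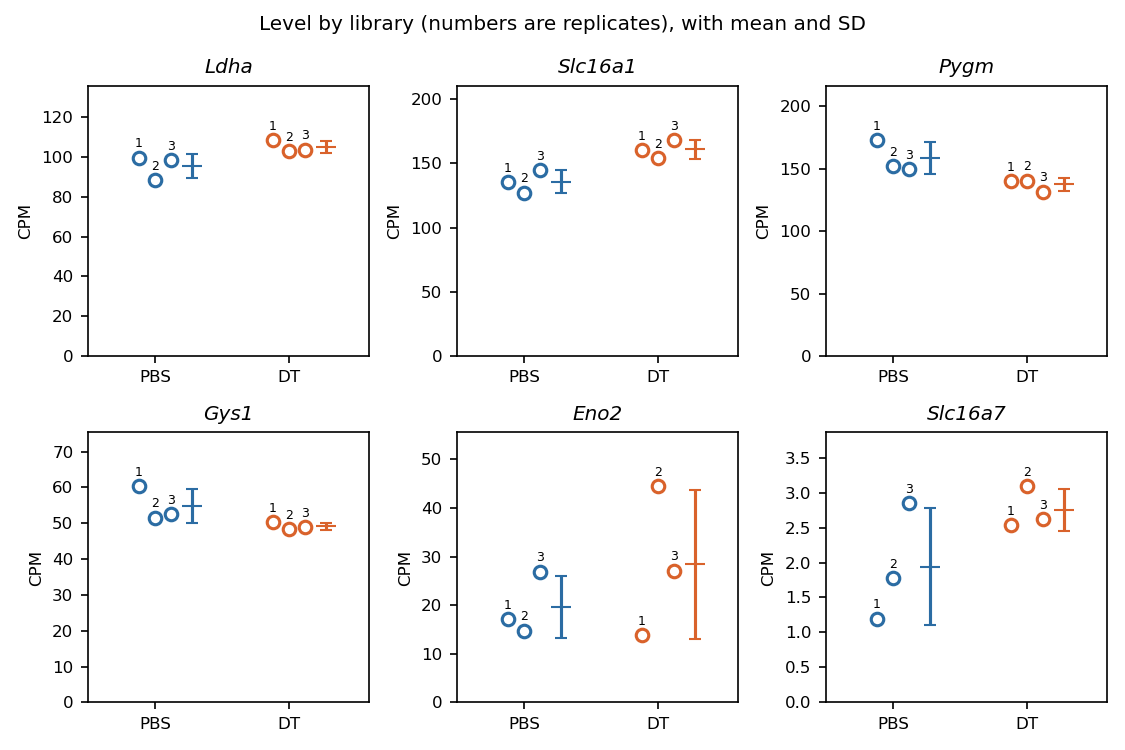
CPM in each library (open circles, numbered by replicate) for the 4 genes whose groups did not overlap and the pair with the widest intervals, with the mean and SD of 3 libraries beside them. The gaps between the groups were narrow for *Ldha* and *Gys1*, and *Eno2* had its lowest value in DT replicate 1 and its highest in DT replicate 2.

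The promoters of *Slc16a1* and *Pygm* are shown because these genes had the smallest p-values of the 35. They are the 250 bases before the start of the RefSeq transcript on GRCm38.p6, in the direction of transcription, at chr3:104638414-104638663 (plus strand) and chr19:6384158-6384407 (plus strand). Capitals mark matches to ACGTG or GCGTG on either strand, the core of the hypoxia response element that hypoxia-inducible factors bind in many glycolytic genes. In the *Slc16a1* window, the letters CACGTG match on both strands, which counts as 2 of its 4 matches.
Slc16a1: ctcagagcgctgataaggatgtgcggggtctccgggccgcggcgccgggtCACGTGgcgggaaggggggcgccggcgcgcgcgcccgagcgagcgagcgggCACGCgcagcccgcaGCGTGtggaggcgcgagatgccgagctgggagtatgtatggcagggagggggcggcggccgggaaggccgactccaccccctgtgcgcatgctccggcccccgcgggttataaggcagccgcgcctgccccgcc
Pygm: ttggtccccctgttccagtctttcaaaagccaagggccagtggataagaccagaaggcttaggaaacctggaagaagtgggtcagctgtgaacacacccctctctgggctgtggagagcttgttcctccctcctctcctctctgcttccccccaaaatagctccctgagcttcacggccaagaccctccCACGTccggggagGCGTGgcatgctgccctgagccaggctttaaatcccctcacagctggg
The table of promoters held windows for 34 of the 35 genes, and *Slc16a7* had none. Of these, 29 (85.3%) had at least 1 match in a window, against 41.5% of the 27025 genes with a window and 59.5% of the 11328 genes tested whose symbol matched a window. Matches were counted in every window of a gene, so a gene with more windows had more places to match. By window, 39 of the 51 windows of these genes (76.5%) had a match, against 38.6% of all 32851 windows. A match describes the letters only.

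Other genes of the same pathways also gave 0 calls, close to the 0.713% of all genes tested that were called. Over 7 lists of 128 further genes, 119 were tested, of which 56 had a higher and 63 a lower mean after DT. At an unadjusted p-value under 0.05 were 18 of them (15.1%, against 10.4% of all genes tested), and the groups did not overlap for 24 (20.2%, against 16.3%). Among the other glycolytic enzymes and glucose carriers, 13 had a higher and 14 a lower mean (median log2 fold change -0.002). The lowest p-value belonged to *Slc2a5*, a fructose carrier known in microglia, which was at 0.829, 1.75 and 1.06 CPM after PBS and at 0.218, 0 and 0 CPM after DT (at most 58 reads in a library, adjusted p = 0.0798). The microglia markers were lower in the same libraries, and their part in the level of *Slc2a5* was not tested. *Eno4*, an enolase known from sperm, was at 11.4 ± 0.87 CPM and 17.2 ± 2.81 CPM (adjusted p = 0.168). The ependymal marker sums were also higher in every DT library than in every PBS library. Both were highest in DT replicate 3, at 20.3 CPM for *Eno4* and 1017 TPM for the markers. The part of ependymal cells in the level of *Eno4* was not tested.

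The partners of the lactate carriers gave wide intervals, except *Bsg* and *Nptn*. Of 6 genes tested, 5 had a higher and 1 a lower mean (median log2 fold change 0.51). *Slc5a8*, *Slc16a8* and *Hcar1* had at most 38, 25 and 18 reads in a library, with log2 fold changes of 1.79, 0.71 and 0.31. *Nptn*, at 125 ± 4.12 CPM and 132 ± 8.45 CPM, had one of 0.08 (-0.07 to 0.23). *Emb*, a chaperone of MCT2, was at 6.44 ± 1.69 CPM and 10.8 ± 3.88 CPM, and its groups overlapped. Its log2 fold change was 0.71 (0.06 to 1.35, adjusted p = 0.436). *Bsg*, the partner that MCT1 needs to reach the membrane, was at 1125 ± 185 CPM and 956 ± 95.5 CPM. Its log2 fold change was -0.23 (-0.50 to 0.05, adjusted p = 0.556), opposite in sign to that of *Slc16a1*, but its interval took in zero. *Bsg* was highest in library 3 of each group (1327 and 1066 CPM), and so were the endothelial marker sums (1195 and 773 TPM). The part of endothelium in the level of *Bsg* was not tested. Of the 11 genes of pyruvate entry and oxidation, 7 were higher and 4 lower. *Pdp1*, the phosphatase that reactivates pyruvate dehydrogenase, was at 22.1 ± 2.37 CPM and 27.3 ± 2.19 CPM, a log2 fold change of 0.31 (adjusted p = 0.381), while *Dlat*, a core subunit of the enzyme, had one of -0.09.

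Of the other glycogen genes, 7 had a higher and 16 a lower mean after DT (median log2 fold change -0.05). *Ppp1r3g*, like *Ppp1r3c* a glycogen-targeting subunit of protein phosphatase 1, was at 45.3, 40.3 and 39.8 CPM after PBS and 36.8, 31.3 and 32.8 CPM after DT. Its groups did not overlap, and its log2 fold change of -0.31 (-0.52 to -0.10) had an adjusted p of 0.281. *Ppp1r3e*, another such subunit, was read 44 to 99 times per library and had a log2 fold change of 0.78 (0.24 to 1.32, adjusted p = 0.298). In the pentose phosphate pathway, which branches off at glucose 6-phosphate, 5 of 9 genes were higher and 4 lower. *H6pd* had the smallest p-value of the higher genes and *Rpe* of the lower ones, with log2 fold changes of 0.26 (-0.15 to 0.67) and -0.04 (-0.22 to 0.14).

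Of the 25 regulators of glycolysis, 10 were higher and 15 lower, with a median of -0.06. *Prkaa2*, a catalytic subunit of the energy sensor AMPK, was at 15.2 to 18 CPM after PBS and 21.1 to 22.2 CPM after DT, a log2 fold change of 0.35 (0.12 to 0.58, adjusted p = 0.272). *Mlxipl*, the glucose-responsive factor ChREBP, was at 6.47 ± 0.41 CPM and 4.60 ± 0.47 CPM, a log2 fold change of -0.49 (-0.84 to -0.13, adjusted p = 0.341). The 18 hypoxia-responsive genes outside glycolysis divided evenly into 9 higher and 9 lower, with a median of -0.01. *Bhlhe40*, a transcription factor of the clock and of hypoxia, was at 154 ± 9.59 CPM and 184 ± 6.01 CPM (log2 fold change 0.25, adjusted p = 0.189). *Ndrg1* was at 44.2 ± 4.63 CPM and 36.7 ± 4.30 CPM (log2 fold change -0.27, adjusted p = 0.447). Of these 18 genes, 6 had an unadjusted p-value under 0.05, or 33.3% against 10.4% of all genes tested, in both directions.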

How the data were processed

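The authors trimmed reads with Trim Galore 0.5.0, mapped them to mm10 with HISAT2 2.1.0 using strand information, removed ribosomal reads with bedtools 2.25.0, quantified genes with StringTie 1.3.5 and compared the groups with edgeR 3.24.3, per their methods and processing notes. They deposited CPM and TPM per gene and library. The deposited CPM is a signal relative to library sizes scaled by the authors' factors, so columns summed to between 980428 and 1026170, where the design had assumed plain CPM. The steps of the deposited CPM gave whole reads within 0.1 read for 100% of values. The deposited TPM was used for levels between genes and isoform shares. The same tables hold log fold changes, q-values and p-values of the authors' own comparison, which were not used.

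From the deposited CPM, log2(CPM + 0.1) was compared for 15137 genes (mean CPM of at least 0.5) by a two-sided limma test (version 3.58.1, R 4.3.3) that modelled the variance as a trend of the level, followed by Benjamini-Hochberg adjustment. The edgeR 4.0.16 quasi-likelihood test and DESeq2 1.42.0 were run on the recovered reads. The other alternatives were pseudocounts of 0.5 and 1, a minimum mean CPM of 2 or none, quantile normalization, TPM in place of CPM, a constant variance, a replicate block and each library left out, and unscaled CPM was added after the values had been seen. The fits were also run on simulated counts with known changes in some genes, and no result here rests on that run. Groups were taken from the sample titles. Named are all 35 genes and, from 7 further lists, any gene past the threshold and the gene with the smallest p-value in each direction. *Eno1b* and the other tested partners of the lactate carriers are named besides. The genes and lists were chosen with earlier results of these data known. Coordinates are from GENCODE M21 on mm10, and promoters from RefSeq. No multiplicity adjustment over the 35 genes alone and no test of a gene list was made.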

Additional observations from a re-analysis of the deposited data

How the results depend on the processing

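None of the 35 genes was called under any of the 17 alternatives in which it was tested, and *Slc16a3* was not tested at a mean CPM of at least 2, which left 34. Over the whole table, where 84 genes were called higher and 24 lower, no variance trend gave 35 and 11, DESeq2 gave 227 and 98, and leaving out 1 library gave 39 to 72 and 9 to 20. The other alternatives stayed within 1.5 times. The number of the 35 genes at an unadjusted p-value under 0.05 was 2, and between 1 and 7 over the alternatives, the 7 being reached without DT replicate 1. *Slc16a1* was among them in 17 of 17 and *Pygm* in 14 of 17, the exceptions being no variance trend and the fits without PBS replicate 1 and without DT replicate 3.

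Same-numbered libraries correlated at 0.115, 0.0105 and 0.118 in their deviations from the group means, and libraries of different number at -0.124 to 0.0115. Replicates 1 and 3 thus correlated best with their own number in both groups. Replicate 2 did not, as PBS replicate 2 correlated at 0.0107 with DT replicate 1. The labels do not say that a number marks an experiment, so the main fit did not take the numbers to pair the samples. With the replicate block, 79 genes were called higher and 30 lower, 0 of the 35 among them, and the lowest adjusted p among the 35 was 0.0986, for *Slc16a1*. At an unadjusted p-value under 0.05 from limma stood 2075 genes with the block, against 1576 in the main fit. Of the 35 genes, 6 did so, against 2 in the main fit (*Eno1*, *Gapdh*, *Ldha* and *Pfkfb3* beside *Pygm* and *Slc16a1*).

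Direction held for 22 of the 35 genes under all alternatives, and 13 genes with differences near zero changed sign in at least 1. Apart from leaving out libraries, these were *Aldoc* (-0.0250 with quantile normalization), *Pgam1* (0.00778 with TPM, 0.0173 with quantile normalization, 0.0102 with unscaled CPM) and *Pdha1* (0.000387 with TPM, 0.00271 with unscaled CPM). Leaving out 1 library moved the log2 fold change from -0.0284 to 0.0326 for *Aldoa*, -0.0349 to 0.0712 for *Aldoc*, -0.0397 to 0.00974 for *Pdha1*, -0.0397 to 0.144 for *Pdk1*, -0.0182 to 0.107 for *Pfkfb2* and -0.0723 to 0.0153 for *Pfkl*. It moved it from -0.0908 to 0.000403 for *Pfkm*, -0.0704 to 0.158 for *Pfkp*, -0.0234 to 0.0222 for *Pgam1*, -0.0705 to 0.118 for *Ppp1r3c*, -0.224 to 0.00262 for *Pygl*, -0.0727 to 0.216 for *Slc16a3* and -0.132 to 0.0324 for *Slc2a1*. The cause of these changes was not tested. Shares computed from CPM, which is not corrected for length, moved by more than 1 SD for 40 of 42 group means. With 20 to 95 reads per library, *Slc16a3* and *Slc16a7* were the genes that depth limited most.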

Other observations

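On the deposited CPM, replicate 1 was the highest PBS library for 21 of the 35 genes and the highest DT library for 24, and was so in both groups for 17 (48.6%), against 16.7% of all genes tested. With TPM it was so in both groups for 8 (22.9%), against 9.45% of all genes tested, and with unscaled CPM also for 8, against 9.20%. Unscaled CPM leaves out the authors' library size factors, which were lowest for replicate 1 of each group (0.974 and 0.982). The count in both groups was thus 17 with these factors and 8 without them. The cause of the remaining pattern was not tested. The log2 fold changes of *Pgam1* and *Pdha1* are the ones whose sign changed with unscaled CPM.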
